A study of Mus musculus with 15 samples.

Results

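Receptor tyrosine kinases that are often altered or targeted in glioma were followed across 4 syngeneic mouse brain tumors and naïve brain. The set was fixed by name and holds 10 of the 46679 genes in the files, namely Egfr, Erbb2, Erbb3 and Erbb4 (the ErbB family), Pdgfra, Met, Fgfr1, Fgfr2, Fgfr3 and Igf1r. All 10 had enough reads to be tested. RNA-seq had been run on naïve brain and on tumors taken at the humane endpoint after intracranial implantation of CT2A, GL261, 005 or Mut3 cells in C57BL/6 mice aged 6 to 8 weeks, with 3 mice per group and 15 libraries in all. CT2A (p53 wild type) and GL261 (mutant for K-ras and p53) come from tumors raised with methylcholanthrene and were grown in serum. The 005 line carries activated H-ras and AKT on a p53+/- background, while Mut3 lacks NF1 and p53 function, and both were kept in serum-free medium with human EGF and FGF-2, which are ligands of the ErbB and FGF receptors. All 4 lines carried a GFP and firefly luciferase reporter, each is a single cell line, and mice received 100000 cells, or 500000 cells for Mut3. Naïve brain came from mice without tumors. Each library is a piece of tissue that also holds host cells, so fewer cells of a type and less RNA per cell cannot be told apart here.

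Receptor tyrosine kinases span the cell membrane, bind a growth factor outside the cell, pair up and phosphorylate each other inside it. The phosphorylated tails recruit adaptors such as GRB2, SHC1, GAB1, FRS2 and IRS proteins, which pass the signal to RAS and MAP kinases and to PI3 kinase and AKT. Sprouty proteins, ERRFI1, LRIG proteins and the ubiquitin ligases of the CBL family damp the signal, and several of them are themselves induced by it. In human glioblastoma EGFR, PDGFRA and MET are the receptors most often amplified. In normal brain Pdgfra marks oligodendrocyte progenitors, Fgfr3 and Fgfr2 are high in astrocytes and oligodendrocytes, and Erbb4 is high in inhibitory neurons.

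Levels are given as CPM (counts scaled to a library of fixed size) after TMM scaling, which corrects for library size and composition, and are compared between samples of the same gene. Different genes are compared only in TPM, which also correct for gene length. DE genes passed 2 limits, a Benjamini-Hochberg adjusted p below 0.05 over the 17481 genes tested, from the quasi-likelihood test of edgeR, and a fold change of at least 1 in size on the log2 scale. Each p sets a difference between group means against the spread between mice within groups, estimated over all 15 libraries together.

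Total counts ran from 3105119 to 13130158 and were lowest in naïve brain (3105119 to 5161132), and mitochondrial genes took 3.48% to 24.0% of the counts. The 6 neuron genes used as markers, none at 0, summed to 3500 to 5646 CPM in naïve brain and to 118 to 1637 CPM in 11 of the 12 tumor libraries. The remaining library, 005 replicate 3, stood apart with 3032 CPM of neuron genes, 4590 CPM of oligodendrocyte genes and 115 CPM of proliferation genes, against 184 and 523, 426 and 602, and 1003 and 1058 CPM in the other 005 libraries. Proliferation genes summed to 24.7 to 38.9 CPM in naïve brain. Receptor results that involve 005 are therefore also given without replicate 3 where the call changes. The ligands, adaptors and inhibitors were read only as fitted over all 15 libraries with TMM, with no library left out and no other scaling. Their 005 results thus hold for all 3 libraries only, and their results against naïve brain hold with naïve replicate 2 included.

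Among the 5 groups, 7 of the 10 receptors differed at an adjusted p under 0.05, where 52.1% of all tested genes did so. Erbb3 differed most clearly (adjusted p = 5.32e-05), followed by Fgfr1 (0.000162), Pdgfra (0.00158), Met (0.00212), Erbb4 (0.00739), Igf1r (0.0207) and Fgfr2 (0.0485). Erbb2 (0.0693), Fgfr3 (0.0707) and Egfr (0.0924) did not pass the threshold. Without 005 replicate 3 Fgfr3 (0.00621) and Egfr (0.0488) passed it, and without naïve replicate 2 Erbb2 did (0.0471). Fgfr2 no longer passed when any of 11 of the 15 libraries was left out (adjusted p 0.0534 to 0.137), nor did Erbb4 without naïve replicate 2 (0.208) or Igf1r without Mut3 replicate 1 or 3 (0.0619 to 0.0672).

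Against naïve brain, CT2A had the most DE receptors, 3 higher and 4 lower, where 39.2% of all tested genes were DE (19% higher and 20.2% lower). In GL261 2 receptors were higher and 1 lower, where 22.4% of all genes were DE (14.6% and 7.77%). In Mut3 2 were higher and 2 lower, where 37.8% of all genes were DE (17.9% and 19.8%). In 005 none of the 10 was DE in edgeR, where 12.7% of all genes were DE (11.6% and 1.05%), although 3 receptors had an unadjusted p under 0.05 and DESeq2 called 1 of them, Met. Without 005 replicate 3, 4 receptors were DE in 005 and 35.7% of 18300 genes were (17.6% higher and 18.1% lower). No receptor was DE in all 4 tumors against naïve brain, where 5.77% of all genes were. For CT2A, GL261, 005 and Mut3 in turn, the median log2 fold change of the 10 receptors was 0.24, -0.21, -0.19 and -0.47, beside -0.04, -0.08, 0.01 and 0.11 over all tested genes. The CPM of tumor and naïve libraries did not overlap for 7, 5, 0 and 5 receptors, and the shares over all tested genes were 56.3%, 47.8%, 27.5% and 53.3%. These shares of receptors lie near or below those of all genes in GL261, 005 and Mut3. The receptors called in each line are described gene by gene.

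**Figure D1:**
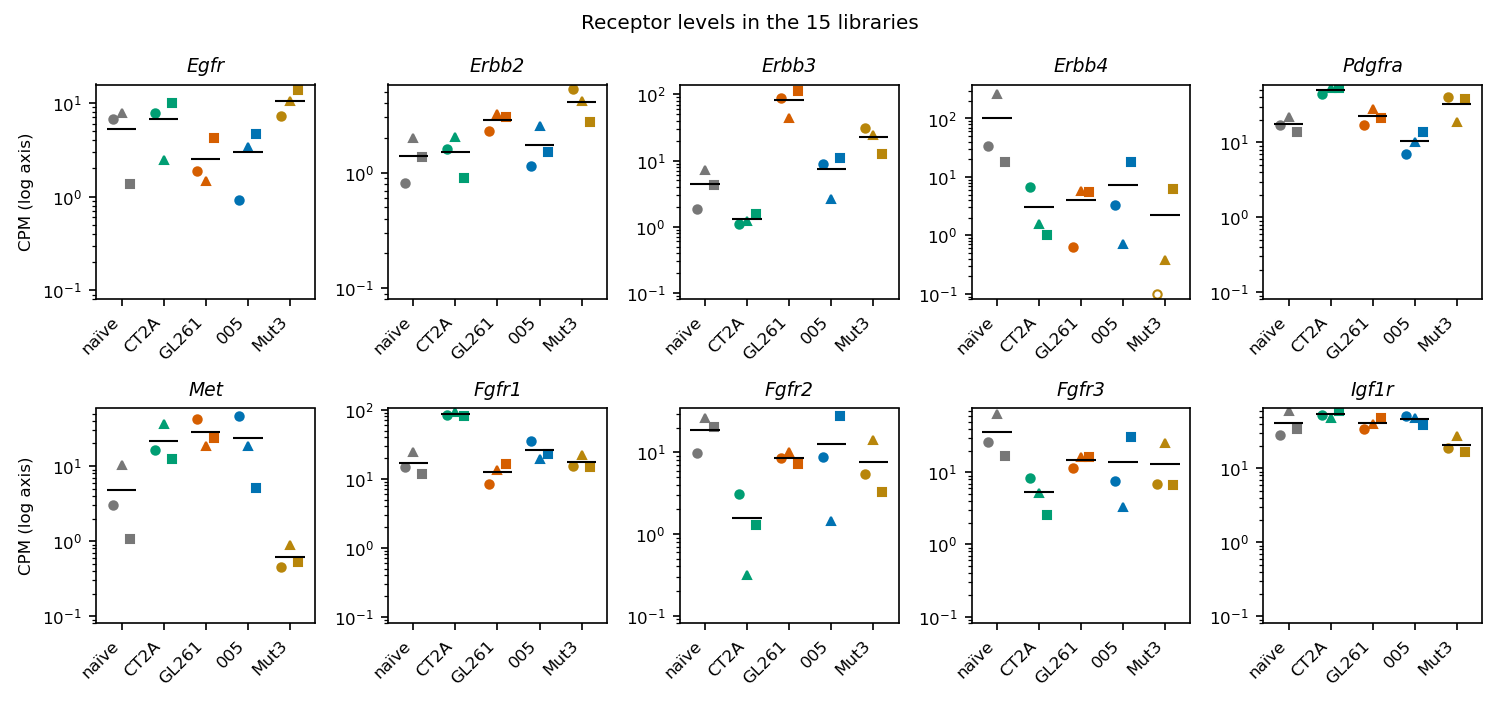
CPM (log axis, a different range for each gene) of the 10 receptors in naïve brain and the 4 tumors, with circles, triangles and squares for replicates 1, 2 and 3 and bars for the mean. Open symbols at 0.1 stand for values below 0.1. Fgfr1 is highest in CT2A, Erbb3 in GL261 and Met lowest in Mut3, while Erbb4 in naïve brain spans 17.8 to 258 CPM.

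**Figure D2:**
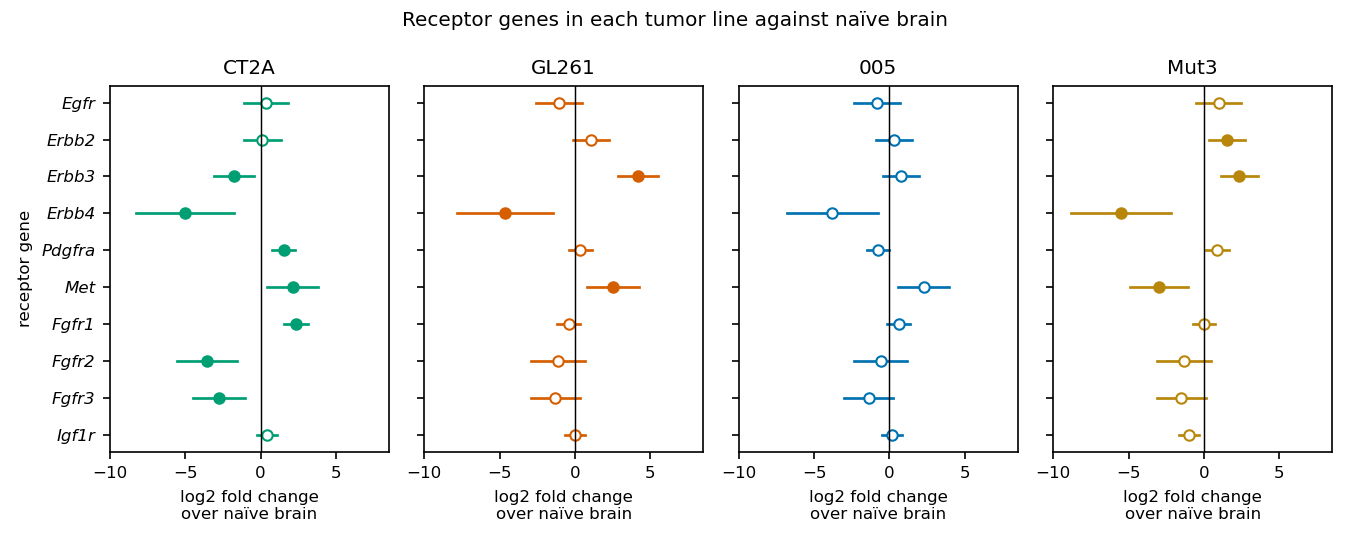
Log2 fold change of each receptor over naïve brain in the 4 tumors with a 95% interval derived from the edgeR test. Filled points are DE (adjusted p under 0.05 and a log2 fold change of at least 1 in size). The intervals of Erbb4 are the widest, and no point is filled in 005.

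Erbb3 has an impaired kinase and signals by pairing with another ErbB receptor after it binds a neuregulin. It had the largest differences between tumors. In GL261 Erbb3 stood at 87.7, 44.4 and 111 CPM and in Mut3 at 30.8, 24.7 and 12.5 CPM. In naïve brain it stood at 1.84, 7.22 and 4.33 CPM, in 005 at 8.86, 2.66 and 11 CPM and in CT2A at 1.10, 1.24 and 1.55 CPM. Every GL261 library was above every other library, every Mut3 library was above those of naïve brain, CT2A and 005, and every CT2A library was below those of all other groups.

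Against naïve brain Erbb3 rose by a log2 fold change of 4.19 ± 0.62 (SE) in GL261 (adjusted p = 0.000553) and by 2.35 ± 0.58 in Mut3 (0.00574), and fell by 1.76 in CT2A (SE 0.63, 0.0359). The change in 005 was 0.77 ± 0.57 (0.354). Between the tumors, GL261 exceeded CT2A by 5.95 on the log2 scale (adjusted p of CT2A against GL261 0.000163, with 7.77% of all genes DE in that pair), 005 by 3.42 (0.0046, 2.62% of genes) and Mut3 by 1.84 (0.0309, 17.2%). CT2A lay 4.11 below Mut3 (0.000832, 12.8%) and 2.53 below 005 (0.0335, 4.11%). Without 005 replicate 3 the last of these was no longer DE (log2 fold change -2.12, adjusted p = 0.0744). Mut3 and 005 were at the border, with 005 lower by 1.58 (adjusted p = 0.0527), and became DE without 005 replicate 3 (-2.01, 0.0353). The same pair was DE with DESeq2, with no filter on low counts, and without naïve replicate 1 or 2. The fall in CT2A lost its call without naïve replicate 2 (-1.01, 0.255), and also without naïve replicate 3, any CT2A replicate or GL261 replicate 1 (adjusted p from 0.0538). The difference of CT2A from 005 also lost its call without any CT2A replicate or 005 replicate 1, and that of GL261 from Mut3 without GL261 replicate 1 or 3 or Mut3 replicate 2 or 3 (adjusted p 0.057 to 0.137 and 0.0528 to 0.119).

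Genes that mark oligodendrocyte progenitors, in which Erbb3 is also found, moved in part with these levels. Their 6 genes, none at 0, summed to 436 to 1024 CPM in Mut3 and 213 to 253 CPM in GL261. The sums were 117 to 197 CPM in naïve brain, 55.3 to 189 CPM in 005 and 35.4 to 74.5 CPM in CT2A. Mut3 rather than GL261 had the highest sums, the reverse of Erbb3. Mature oligodendrocyte genes summed to 1613 to 4112 CPM in naïve brain, where Erbb3 was low, and to 1085 to 1696 CPM in GL261. The part of host or tumor cells of either kind in the Erbb3 levels was not tested.

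Erbb2, the ErbB receptor without a ligand of its own and the usual partner of Erbb3, was low in every library. Its CPM were 0.816, 1.99 and 1.35 in naïve brain and 5.26, 4.15 and 2.73 in Mut3, so the Mut3 libraries lay above the naïve ones. They were 1.59, 2.02 and 0.904 in CT2A, 2.28, 3.23 and 3.03 in GL261 and 1.13, 2.54 and 1.5 in 005. Mut3 exceeded naïve brain by a log2 fold change of 1.54 ± 0.55 (adjusted p = 0.0371). GL261 also lay above naïve brain in every library, but with a change of 1.05 ± 0.56 the difference did not pass the test (0.17). The call in Mut3 rests on few reads, since the naïve libraries held 3.71 to 8.19 counts of Erbb2, and it was lost without Mut3 replicate 1 or 2 or without naïve replicate 1 or 3 (adjusted p over the alternatives 0.0208 to 0.411).

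Egfr, the receptor of EGF, TGF-alpha, amphiregulin and heparin-binding EGF, spread widely within groups and was DE in no comparison as fitted over all samples. Its CPM were 7.27, 10.4 and 13.7 in Mut3, 7.82, 2.48 and 9.95 in CT2A, and 6.73, 7.72 and 1.35 in naïve brain. They were lower at 0.927, 3.38 and 4.63 in 005 and 1.87, 1.45 and 4.25 in GL261. Every Mut3 library lay above every GL261 and 005 library, and the other groups overlapped. The difference of GL261 from Mut3 was -2.03 on the log2 scale with a 95% interval of -3.56 to -0.50 (adjusted p = 0.0627), and that of 005 from Mut3 was -1.80, from -3.29 to -0.31 (0.0801). DESeq2 called both (0.0191 and 0.0313), and in edgeR the first also became DE with no filter on low counts, with only the samples compared, or without naïve replicate 3 or 005 replicate 1 or 3 (0.0174 to 0.0468). Against naïve brain the intervals ran from -1.13 to 1.84 in CT2A and from -0.50 to 2.47 in Mut3, so differences of 2-fold and more in either tumor are within the error.

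Erbb4, a neuregulin receptor of neurons, was lower in the tumors than in naïve brain, but its naïve level rested on 1 library. Naïve replicates 1 to 3 stood at 34.5, 258 and 17.8 CPM, from 169, 1034 and 65.7 counts. CT2A stood at 6.72, 1.55 and 1.03 CPM, GL261 at 0.622, 5.82 and 5.58 CPM, 005 at 3.3, 0.724 and 17.9 CPM, and Mut3 at 0, 0.377 and 6.24 CPM, where a count of 0 allows up to 0.336 CPM. All libraries of CT2A, GL261 and Mut3 were below all naïve libraries, while 005 replicate 3 reached the lowest naïve value. Erbb4 fell by 5.04 in CT2A (SE 1.53, adjusted p = 0.0175), by 4.65 in GL261 (SE 1.5, 0.0376) and by 5.49 in Mut3 (SE 1.55, 0.0123). In 005 the change was -3.80 ± 1.42 (0.0902), and without 005 replicate 3 it was DE at -5.73 (0.0151). Without naïve replicate 2 the changes were -2.85 in CT2A (0.136), -2.53 in GL261 (0.222) and -3.30 in Mut3 (0.0898), none of them DE. The calls were also lost without CT2A replicate 2 or 3 in CT2A (adjusted p from 0.0699), and without naïve replicate 1, CT2A replicate 2 or any GL261 replicate in GL261 (from 0.0513).

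Neuron genes moved with Erbb4. All 6 were DE and lower in CT2A and in Mut3, and 1 of 6 was in GL261 and in 005, and their sums in 005 replicate 3 (3032 CPM) were close to those of naïve brain (from 3500 CPM). Naïve replicate 2, with the highest Erbb4, had the lowest neuron sum of the naïve libraries at 3500 CPM and the lowest total count. The part of neuron content in the Erbb4 levels was not tested.

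**Figure D3:**
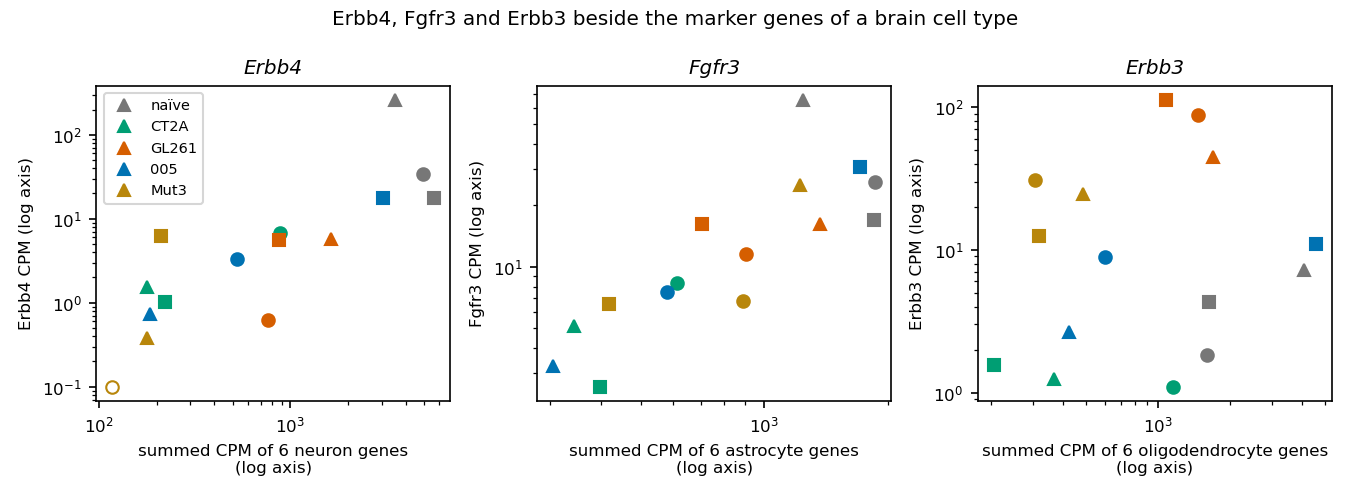
CPM of Erbb4, Fgfr3 and Erbb3 (log axes) against the summed CPM of 6 genes of neurons, astrocytes and oligodendrocytes in the 15 libraries, with circles, triangles and squares for replicates 1, 2 and 3. The open symbol stands for a count of 0. Libraries with more neuron genes tend to have more Erbb4, with naïve replicate 2 (triangle at 258 CPM) above the others, while the GL261 and Mut3 libraries hold more Erbb3 than the naïve libraries, whose oligodendrocyte sums are 1613 to 4112 CPM.

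Pdgfra, the receptor of PDGF-A, PDGF-B and PDGF-C, was highest in CT2A. The CT2A libraries stood at 44.0, 53.1 and 53.3 CPM, above all others. Mut3 followed at 40.1, 18.9 and 38.3 CPM, GL261 at 17.2, 28.1 and 21.2 CPM, naïve brain at 16.9, 21.7 and 13.8 CPM, and 005 at 6.90, 10.1 and 13.8 CPM. Pdgfra rose in CT2A by a log2 fold change of 1.52 ± 0.36 over naïve brain (adjusted p = 0.0052). It was 0.89 ± 0.35 higher in Mut3 (0.0563) and 0.76 lower in 005 (0.158), and neither passed the test. Without 005 replicate 3 the latter was DE at -1.11 (0.0359), and the former was DE at 1.25 without naïve replicate 2 (0.0245) and at 1.17 without Mut3 replicate 2 (0.0211).

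Between the tumors, Pdgfra exceeded 005 by 2.28 ± 0.36 in CT2A (adjusted p = 0.00394) and by 1.65 in Mut3 (0.00697, where 19.8% of all genes were DE). CT2A also lay above GL261 in every library, by 1.17 (0.0534), which did not pass, although DESeq2 called it (0.00667) and so did edgeR without 005 replicate 3 (0.0264). The progenitor genes that Pdgfra marks in normal brain moved with it only in part. CT2A had both the highest Pdgfra and the lowest sum of these genes, 35.4 to 74.5 CPM. There 5 of the 6 were DE and lower and 1 higher than in naïve brain. Mut3, next in Pdgfra, had the highest sum, 436 to 1024 CPM. Genes of mural cells and fibroblasts summed to 134 to 137 CPM in CT2A and 111 to 177 CPM in naïve brain. The part of any of these cells in the Pdgfra levels was not tested.

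Met, the receptor of hepatocyte growth factor, separated Mut3 from the other tumors. Its CPM were 0.448, 0.881 and 0.528 in Mut3, from 3.79 to 6.83 counts. They were 16.4, 36.2 and 12.3 in CT2A, 42.3, 18.4 and 23.8 in GL261, 46.4, 18.7 and 5.13 in 005, and 3.06, 10.5 and 1.08 in naïve brain. Every Mut3 library lay below every other library, every CT2A and GL261 library lay above every naïve one, and 005 overlapped with naïve brain through replicate 3. Mut3 was lower than CT2A by 5.11 on the log2 scale (SE 0.92, adjusted p = 0.00253), than GL261 by 5.49 (SE 0.94, 0.0021) and than 005 by 5.22 (SE 0.93, 0.0026). No difference in Met among CT2A, GL261 and 005 was detectable at this depth, with differences from -0.38 to 0.27 and 95% intervals that reach from -1.95 to 1.83.

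Against naïve brain Met rose by 2.14 ± 0.79 in CT2A (adjusted p = 0.0415) and by 2.53 ± 0.80 in GL261 (0.0353), and fell by 2.96 in Mut3 (SE 0.90, 0.018). In 005 the change of 2.26 ± 0.79 had an adjusted p of 0.0737, and of 0.0086 at 2.66 without replicate 3. The naïve level rested on 3.83 to 42.2 counts. Without naïve replicate 2, the highest, the fall in Mut3 was no longer DE (-1.59, 0.205), while the rises in CT2A and GL261 were 3.54 (0.0146) and 3.86 (0.0175). Those rises lost their call without naïve replicate 1 or 3, in CT2A also without CT2A replicate 2 or GL261 replicate 3 (adjusted p 0.0556 to 0.146) and in GL261 also without GL261 replicate 1 or 3 (0.0684 to 0.112). The fall in Mut3 was also lost without Mut3 replicate 1 or 3 (from 0.0613).

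Fgfr1 belongs to the 4 receptors of fibroblast growth factors and is the form common in mesenchymal cells. Like Erbb3, which was lower there, it was DE in CT2A against every other group. CT2A stood at 84.3, 92.4 and 81.9 CPM, a mean of 86.2 ± 5.49 (SD, n = 3). Naïve brain stood at 14.7, 24.7 and 11.6 CPM, GL261 at 8.29, 13.4 and 16.1 CPM, 005 at 35.2, 19.3 and 23.1 CPM and Mut3 at 15.1, 21.9 and 14.7 CPM. No library outside CT2A exceeded 35.2 CPM, and the other groups overlapped with naïve brain. Fgfr1 rose in CT2A by a log2 fold change of 2.34 ± 0.36 over naïve brain (adjusted p = 0.000595), and CT2A exceeded GL261 by 2.77 ± 0.37 (0.000535), Mut3 by 2.32 ± 0.36 (0.000905) and 005 by 1.74 ± 0.35 (0.0145). The changes in GL261, 005 and Mut3 against naïve brain were -0.42, 0.61 and 0.02, with adjusted p of 0.381, 0.24 and 0.974. The difference of CT2A from 005 lost its call without CT2A replicate 2 or 3 (adjusted p 0.0547 to 0.067).

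Fgfr2 and Fgfr3, the FGF receptors of astrocytes and oligodendrocytes, went the other way in CT2A. Fgfr2 stood at 9.79, 26.4 and 20.3 CPM in naïve brain and at 3.05, 0.310 and 1.29 CPM in CT2A, and Fgfr3 at 26.1, 65.5 and 17.0 CPM and 8.30, 5.12 and 2.58 CPM. For both genes every CT2A library lay below every naïve one. Fgfr2 fell by 3.56 (SE 0.94, adjusted p = 0.00896) and Fgfr3 by 2.76 (SE 0.81, 0.0149). Without naïve replicate 2 the fall of Fgfr3 was 1.80 on the log2 scale and no longer DE (0.0955), and the call was also lost without CT2A replicate 2 or 3 (adjusted p from 0.0572).

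In the other tumors neither gene was DE as fitted over all samples. Fgfr2 stood at 8.5, 10.02 and 7.16 CPM in GL261, 8.76, 1.45 and 27.6 CPM in 005 and 5.37, 14.2 and 3.25 CPM in Mut3. Fgfr3 stood at 11.6, 16.2 and 16.1 CPM in GL261, 7.52, 3.26 and 30.8 CPM in 005 and 6.82, 25.3 and 6.60 CPM in Mut3. In 005 replicate 3 was the highest for both genes, and in Mut3 replicate 2 was. The 95% interval of the change over naïve brain ran for Fgfr3 from -2.93 to 0.32 in GL261, -3.00 to 0.25 in 005 and -3.12 to 0.14 in Mut3. Without 005 replicate 3 the change in 005 was DE at -2.81 (adjusted p = 0.00933), and without Mut3 replicate 2 that in Mut3 was DE at -2.42 (0.0438). Limma on log2(TPM + 1) called both Fgfr2 and Fgfr3 lower in Mut3 (0.042 and 0.0378).

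Astrocyte genes moved in part with both receptors. The 6 genes, none at 0, summed to 1243 to 1865 CPM in naïve brain and 344 to 614 CPM in CT2A. GL261 had 704 to 1372 CPM, 005 306 to 1711 CPM and Mut3 420 to 1222 CPM. The highest sums in 005 and Mut3 were those of 005 replicate 3 and Mut3 replicate 2, the libraries with the highest Fgfr2 and Fgfr3 in their groups. Naïve replicate 2 went the other way, with the highest Fgfr2 and Fgfr3 and the lowest astrocyte sum of the naïve libraries (1243 CPM). In CT2A 3 of the 6 astrocyte genes were DE and lower and none higher, in Mut3 2 were lower and 1 higher, and in GL261 1 was higher. The part of astrocyte content in the receptor levels was not tested.

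Fgfr2 and Fgfr3 were also the pair of receptors with the most similar pattern over the 15 libraries, by the root mean square difference of their standardized log2 CPM (0.52, the smallest of all pairs of the 10). Stretches of their RefSeq promoters are shown because the genes moved together. Each covers the 200 bases from 250 to 51 bases upstream of a RefSeq start, which is chr7:130266859-130267058 on the minus strand for Fgfr2 and chr5:33721474-33721673 on the plus strand for Fgfr3, at the more upstream of its 2 listed starts, both in GRCm38.p6. Capitals mark the GC box letters GGGCGG or CCGCCC.
Fgfr2: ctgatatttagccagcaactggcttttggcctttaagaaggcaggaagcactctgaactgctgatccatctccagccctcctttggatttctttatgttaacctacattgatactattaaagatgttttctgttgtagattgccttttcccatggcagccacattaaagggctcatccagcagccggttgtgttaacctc
Fgfr3: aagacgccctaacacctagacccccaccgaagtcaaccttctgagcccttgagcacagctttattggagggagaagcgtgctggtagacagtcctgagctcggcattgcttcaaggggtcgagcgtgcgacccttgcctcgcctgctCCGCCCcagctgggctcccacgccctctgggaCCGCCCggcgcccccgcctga
The stretches were unlike. That of Fgfr2 had 44.0% G and C, 1 CpG site and no GC box letters, while that of Fgfr3 had 65.0% G and C, 14 CpG sites and the letters 2 times. The letters occur in 24.6% of the 32851 mouse promoter stretches of the same length, and the median number of CpG sites is 4. GENCODE places the stretch of Fgfr2 inside its long Fgfr2 model and that of Fgfr3 inside G630022F23Rik, a gene on the opposite strand. Of the 10 receptors 8 had an entry, with 9 starts in all, and Erbb3 and Fgfr1 had none. The letters were found for Met and Fgfr3 and not in the stretches of Egfr, Erbb2, Erbb4, Pdgfra, Fgfr2 and Igf1r.

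Igf1r, the receptor of insulin-like growth factors, varied least, from 16.4 to 60.2 CPM over the 15 libraries. Its CPM were 53.0, 48.3 and 60.2 in CT2A, 51.1, 47.2 and 38.7 in 005, 34.0, 39.6 and 48.2 in GL261 and 28.6, 58.5 and 34.1 in naïve brain. In Mut3 they were 19.0, 26.9 and 16.4, below every other library. CT2A exceeded Mut3 in Igf1r by a log2 difference of 1.37 ± 0.31 (adjusted p = 0.00943), and 005 did by 1.14 ± 0.31 (0.0195). The latter was no longer DE without Mut3 replicate 1 or 3 (0.0628 to 0.063). The differences of Mut3 from naïve brain (-0.96, 0.0234) and of GL261 from Mut3 (0.97, 0.0424) passed the adjusted p but lay just under the fold threshold. Igf1r in CT2A, GL261 and 005 differed from naïve brain by 0.41, 0.01 and 0.18, and the 95% intervals lay between -0.64 and 1.07.

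Some calls depended on the scaling. The sample scale that underlies the deposited TPM differs from TMM, and with it the median of all genes against naïve brain moved to -1.04, -0.89, -0.56 and -0.72 for CT2A, GL261, 005 and Mut3. On that scale Met and Pdgfra in CT2A, Met in GL261 and Erbb2 and Erbb3 in Mut3 were no longer DE against naïve brain, while Fgfr1 in GL261 and Igf1r in Mut3 became DE and lower. This left 1 receptor higher and 4 lower in CT2A (3 and 4 with TMM), 1 and 2 in GL261 (2 and 1) and 0 and 3 in Mut3 (2 and 2). Between tumors that scale ended the calls of Pdgfra in CT2A against 005 and in 005 against Mut3. It also ended those of Fgfr1 in CT2A against 005, Igf1r in CT2A against Mut3 and Erbb3 in GL261 against Mut3. With it Pdgfra no longer differed among the 5 groups. Between tumors, scaling by library size ended the calls of Erbb3 in GL261 against Mut3, Fgfr1 in CT2A against 005 and Igf1r in CT2A and 005 against Mut3. Against naïve brain it ended those of Met in CT2A and GL261 and of Erbb2 in Mut3, while Igf1r in Mut3 became DE and lower. By library size Fgfr2 and Igf1r no longer differed among the 5 groups. No call changed sign under any alternative. Of the 29 calls, 6 held under every alternative that tested the gene, namely Erbb3 in GL261 against naïve brain and against CT2A, Fgfr1 in CT2A against naïve brain, GL261 and Mut3, and Fgfr2 in CT2A against naïve brain.

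Within a library the make-up of the receptor transcripts does not depend on the scaling. Per length, as shares of the summed TPM of the 10 receptors, Fgfr3 (22.7% to 33.3%) and Fgfr2 (14.9% to 32.1%) were among the leading receptors in naïve brain. Fgfr1 took 57.5% to 58.6% in CT2A, with Pdgfra next at 15% to 18.9%. Erbb3 took 22.9% to 42.4% in GL261, against 0.39% to 0.61% in CT2A. In Mut3 Pdgfra (9.05% to 29.5%), Fgfr1 (19.3% to 22.6%), Fgfr3 (9.01% to 25.3%) and Erbb3 (10.4% to 21.2%) shared the lead, and Met took 0.24% to 0.37%. The 005 libraries were mixed, with Fgfr1 at 19.1% to 35.7% and Met at 1.90% to 21.1%. Egfr never exceeded 7.72% in any library.

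**Figure D4:**
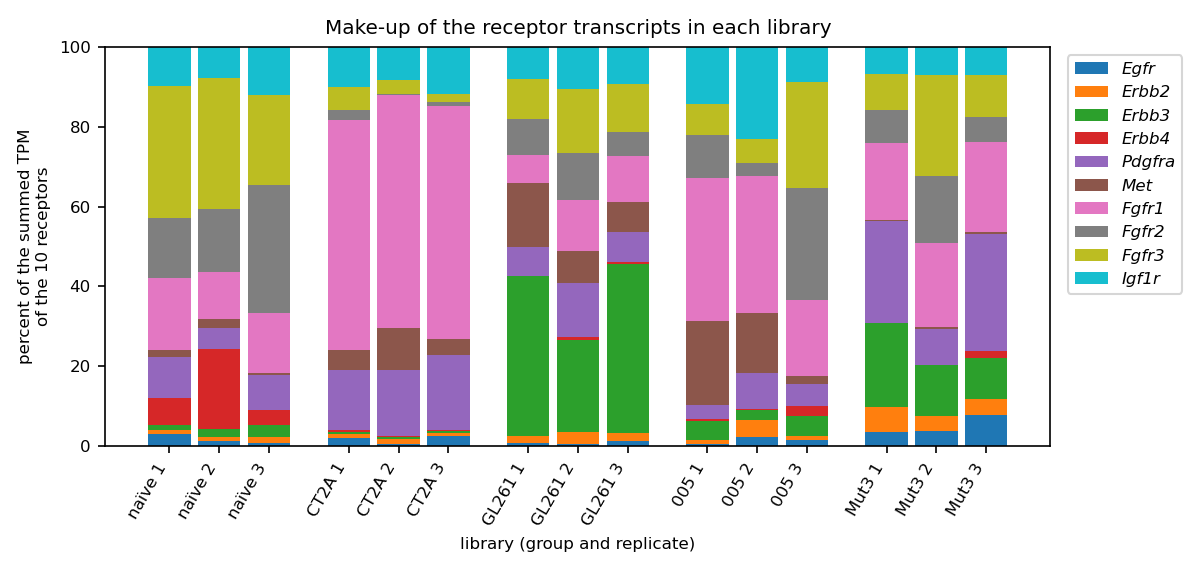
Percent of the summed TPM of the 10 receptors taken by each receptor in the 15 libraries, labelled by group and replicate. Fgfr1 takes 57.5% to 58.6% in CT2A and Erbb3 22.9% to 42.4% in GL261, while the 3 libraries of 005 differ from each other.

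The genes whose pattern over the 15 libraries was most like that of a receptor were named by the same measure, and the smaller the difference the more alike they are. Nearest to Erbb3 were Gm10687 (0.36) and Fat1 (0.37), and nearest to Fgfr1 were Olfml2b (0.31) and Sos2 (0.33). Olfml2b had a mean of 66.7 CPM in CT2A and 5.80 to 13.2 CPM in the other groups. Among the nearest to Met was Dusp6 (0.37), a phosphatase of ERK that is induced by ERK signaling, with means of 13.7 CPM in Mut3, 32.3 CPM in naïve brain and 70.0, 125 and 131 CPM in CT2A, GL261 and 005. Nearest to Erbb4 were Strbp (0.32) and Syt7 (0.36), to Fgfr2 Cacng5 (0.33) and the astrocyte glutamate transporter Slc1a3 (0.33), and to Fgfr3 Rab11fip4 (0.29) and Atp1b2 (0.29). For Pdgfra they were Cfap74 (0.43) and Capn6 (0.44), for Igf1r Phc2 (0.32) and Actn1 (0.34), for Egfr Gm26792 (0.45) and Gm43081 (0.49) and for Erbb2 2310010J17Rik (0.48) and Sord (0.54).

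The ligands, adaptors and inhibitors of these receptors were read from 8 lists with 61 genes, of which 52 were tested. Against naïve brain 11 were DE and higher and 12 lower in CT2A, 5 and 5 in GL261, 12 and 0 in 005, and 8 and 16 in Mut3, beside the shares of all genes given above. Between tumors the largest numbers were in 005 against Mut3, with 19 higher and 3 lower in 005 (14% and 5.76% of all genes). The median log2 fold change of the 52 genes in that pair was 0.99, beside 0.10 over all tested genes. In 10 comparisons 43 of the 52 were DE at least once, where 61.5% of all tested genes were.

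The ligands of Egfr differed by tumor. Of 7 listed 5 were tested and all 5 were DE in at least 1 comparison, where 61.5% of all tested genes were. Btc (betacellulin) stood at 28.1, 36.6 and 24.8 CPM in CT2A and 22.6, 22.6 and 0.570 CPM in 005, while no library of naïve brain, GL261 or Mut3 exceeded 1.08 CPM. It rose by 5.89 ± 1.09 in CT2A (adjusted p = 0.00163) and by 4.92 ± 1.08 in 005 (0.00843). Areg (amphiregulin) stood at 19.8, 25.7 and 1.57 CPM in 005 and rose there by 4.75 ± 1.11 (0.0123). Hbegf rose in 005 by 2.49 ± 0.52 (0.00654), from 10.5 to 13.8 CPM in naïve brain to 97.0, 92.8 and 16.2 CPM.

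In all 3 of these genes 005 replicate 3 was the lowest 005 library. Areg also exceeded GL261 by 4.24 and Mut3 by 4.73 in CT2A (adjusted p = 0.0461 and 0.0184). Tgfa, the EGF family ligand of many gliomas, fell in CT2A by 1.93 (0.0391) and was lower there than in GL261 (-2.54, 0.0402) and Mut3 (-2.83, 0.0171). Its CPM in CT2A, 1.29 to 7.57, overlapped with the wide range of naïve brain, 7.55 to 29.9. Egf itself rose in Mut3 by 3.01 ± 0.79 (0.00848), to 1.45, 6.42 and 2.02 CPM from 0.270 to 0.498 CPM in naïve brain.

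Of the 3 neuregulins tested, the ligands of Erbb3 and Erbb4, Nrg4 rose in GL261, the tumor with the highest Erbb3. It stood there at 11.4, 10.7 and 3.64 CPM, and at 0 to 1.49 CPM in all other libraries. The rise over naïve brain was 3.89 ± 1.13 on the log2 scale (adjusted p = 0.0254). NRG4 binds Erbb4, which was low in GL261. Nrg1 fell in CT2A by 1.65 (0.0462) and in Mut3 by 3.55 (0.00148), and Nrg3, a neuronal neuregulin, fell in CT2A by 2.62 (0.0323) and in Mut3 by 4.89 (0.0025), the tumors in which all 6 neuron genes also fell.

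Among the PDGF genes CT2A, with the highest Pdgfra, also had the highest Pdgfc, at 26.5, 18.6 and 14.5 CPM against 0.264 to 6.52 CPM in all other libraries. Pdgfc rose there by 2.36 ± 0.50 over naïve brain (adjusted p = 0.00314) and exceeded 005 by 2.20 (0.0232), GL261 by 2.77 (0.00452) and Mut3 by 4.86 (0.000128). In Mut3 it fell by 2.49 (0.00294). Pdgfrb, the second PDGF receptor and a gene of mural cells, rose in CT2A by 1.98 ± 0.56 (0.0129). Pdgfb fell in CT2A, GL261 and Mut3 by 1.68, 1.45 and 2.06, and Pdgfa in GL261 and Mut3 by 1.05 and 1.38. The ligand genes of CT2A thus did not all move as Pdgfra did.

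Hgf, the ligand of Met, had its lowest mean in Mut3, as Met had. It stood at 0.336, 0.252 and 0.176 CPM in Mut3 and at 4.90, 0 and 3.24 CPM in naïve brain, where the 0 in replicate 2 allows up to 0.747 CPM. Mut3 was below naïve brain by 3.37 (adjusted p = 0.0149), below CT2A by 4.66 (0.00659), below GL261 by 4.14 (0.0124) and below 005 by 3.41 (0.0237). Microglia and macrophage genes, a source of Hgf in brain, summed to 54.3 to 141 CPM in Mut3, the lowest of all groups. Naïve brain had 144 to 191 CPM, CT2A 205 to 289 CPM, GL261 403 to 706 CPM and 005 378 to 878 CPM. Their part in the Hgf levels was not tested.

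In the FGF list all 6 tested genes were DE at least once, where 61.5% of all tested genes were. Fgfrl1, an FGF receptor that lacks the kinase, stood at 95.2, 77.0 and 87.9 CPM in Mut3 and 52.2, 34.3 and 75.1 CPM in GL261, against 4.97 to 28.1 CPM in all other libraries. It rose by 3.22 ± 0.47 in Mut3 (adjusted p = 0.000376) and by 2.54 ± 0.46 in GL261 (0.0019). Fgf7 rose in CT2A by 3.72 ± 0.95 (0.00774) and in 005 by 3.90 ± 0.95 (0.0154). Fgf9 and Fgf10 fell in CT2A by 3.92 and 5.91, and Fgf1, Fgf2, Fgf9 and Fgf10 fell in Mut3 by 2.68, 1.59, 4.48 and 4.15.

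The only listed genes that rose in all 4 tumors were Igfbp3, a binding protein of insulin-like growth factors, and the adaptor Shc1. Igfbp3 stood at 0.747 to 2.43 CPM in naïve brain and 33.0 to 62.3 CPM in CT2A, 7.25 to 10.3 in GL261, 3.20 to 22.8 in 005 and 4.05 to 11.3 in Mut3, with log2 fold changes of 4.96, 2.49, 3.19 and 2.15. Shc1 stood at 2.86 to 4.23 CPM in naïve brain and rose by 3.52, 2.22, 2.61 and 2.12. Igf1 rose in CT2A by 3.27 ± 0.93 (adjusted p = 0.0127) and in 005 by 3.04 ± 0.92 (0.0425). Igf2 fell in CT2A by 3.12 (0.00669) and in Mut3 by 3.65 (0.00275).

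Of the other IGF genes Igfbp5 fell in CT2A by 2.18, Igfbp7 rose in 005 and Mut3 by 1.90 and 1.35, and Igf2r, a clearance receptor, rose in Mut3 by 2.20 with a wide spread of 104, 45.7 and 12.8 CPM. Insr, the insulin receptor, was lower in Mut3 than in CT2A and 005, the same pairs of tumors in which Igf1r was DE, with differences of 1.34 and 1.79. Igfbp4 was lower in GL261 than in CT2A and Mut3, by 1.35 and 1.56.

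Of the 11 adaptors tested 7 were DE in at least 1 of the 10 comparisons, where 61.5% of all genes were. Besides Shc1, 4 were DE against naïve brain, with Gab1 higher in Mut3 by 1.58 ± 0.41 (adjusted p = 0.00771), Grb2 and Irs2 lower in Mut3 by 1.12 and 1.35, and the phosphatase Ptpn11 lower in CT2A and GL261 by 1.19 and 1.05. Sos2 exceeded GL261 by 1.02 in CT2A, and Frs2 exceeded Mut3 by 1.40 in 005.

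Of the 12 inhibitors and ubiquitin ligases 9 were DE at least once, where 61.5% of all tested genes were. Spry1 rose by 3.92 ± 0.67 in CT2A (adjusted p = 0.000991), 3.67 ± 0.66 in GL261 (0.00194) and 2.91 ± 0.65 in 005 (0.00941), from 1.35 to 2.45 CPM in naïve brain. All 3 tumors exceeded Mut3, in which Spry1 stood at 2.01 to 5.15 CPM, by 3.04, 2.79 and 2.03. Spry4 rose in CT2A and 005 by 2.17 and 3.06, and Spry2 fell in Mut3 by 1.23 (0.00217). Errfi1, which binds and inhibits Egfr, rose by 2.01 ± 0.39 in CT2A (0.00213) and 1.47 ± 0.39 in 005 (0.0228), and Lrig1, which promotes the turnover of ErbB receptors, by 2.31 ± 0.46 (0.00234) and 1.66 ± 0.45 (0.027).

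The tumors in which Errfi1 and Lrig1 rose were those in which Btc rose. Lrig3 rose in Mut3 by 1.97. Rnf41, a ubiquitin ligase of Erbb3, fell by 1.69 in CT2A (adjusted p = 0.00417), 1.28 in GL261 (0.0255) and 2.59 in Mut3 (0.000455). Erbb3 rose in GL261 and Mut3 and fell in CT2A, where its call was lost without some libraries. The part of Rnf41 in the Erbb3 levels was not tested. Grb10 fell in CT2A, GL261 and Mut3 by 1.54, 1.80 and 1.44, and Grb14 fell in CT2A by 1.83.

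**Figure D5:**
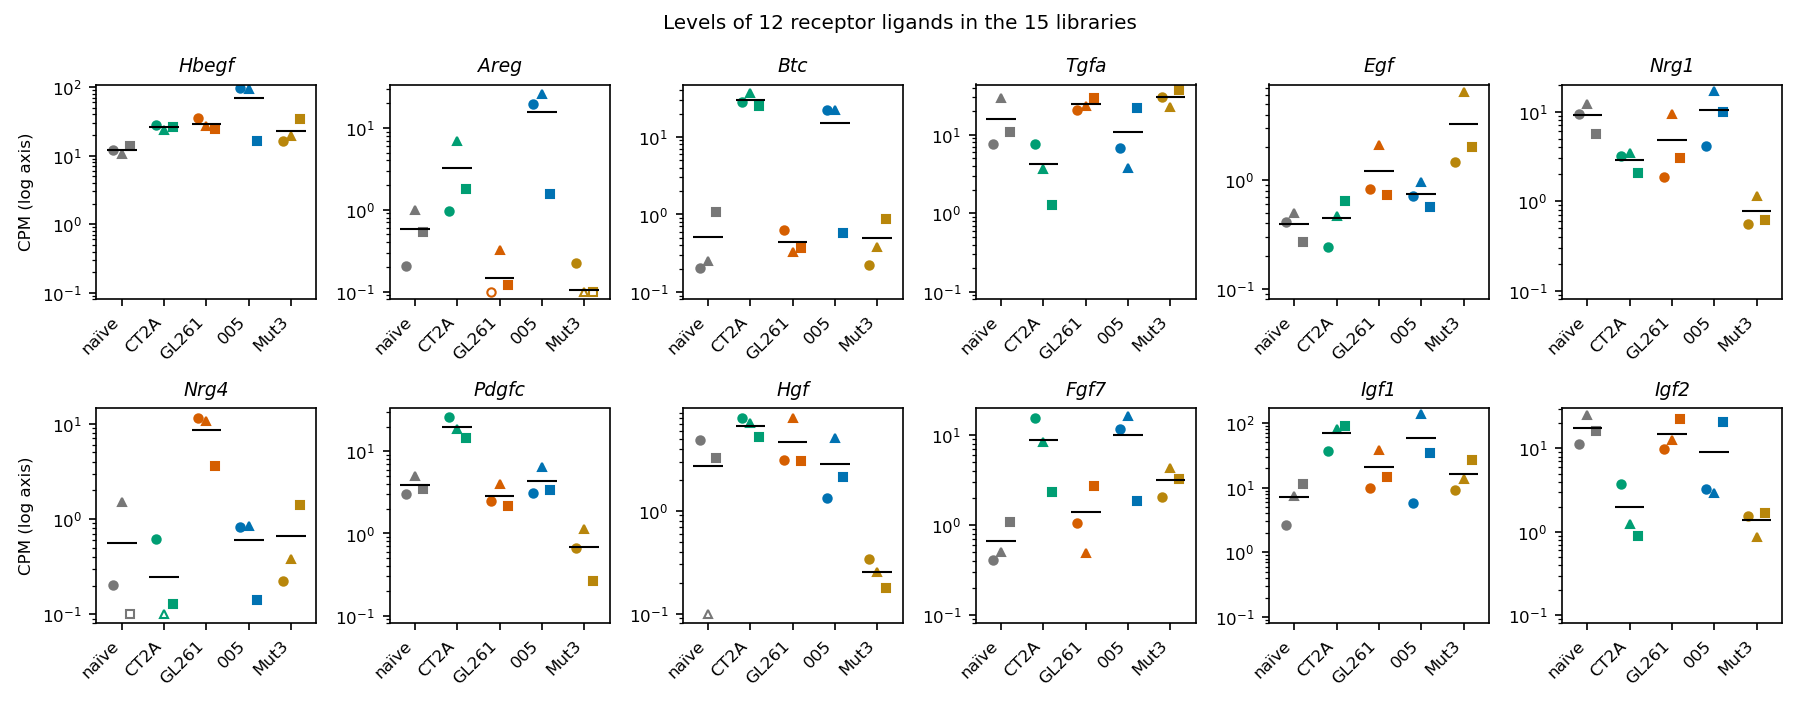
CPM (log axis, a different range for each gene) of 12 ligands of the receptors in the 15 libraries, with circles, triangles and squares for replicates 1, 2 and 3, bars for the mean and open symbols at 0.1 for values below 0.1. Btc is high in CT2A and in 2 of the 3 libraries of 005, Nrg4 in GL261 and Pdgfc in CT2A, and Hgf does not exceed 0.336 CPM in Mut3.

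Gene positions bear on a few of these values. In GENCODE M21, which is on GRCm38, Egfr lies on chromosome 11 (16752203-16918158, plus strand), Erbb2 on 11 (98412470-98437716, plus), Erbb3 on 10 (128567523-128589652, minus), Erbb4 on 1 (68032186-69108059, minus), Pdgfra on 5 (75152292-75198215, plus) and Met on 6 (17463800-17573980, plus). Fgfr1 lies on chromosome 8 (25513654-25575718, plus), Fgfr3 on 5 (33721674-33737068, plus), Igf1r on 7 (67952827-68233668, plus) and Fgfr2 on 7 (130162451-133123350, minus). The Fgfr2 model spans 2960900 bases and overlaps 69 other genes, 33 of them on the opposite strand, whereas RefSeq ends the gene at 130266808, so the Fgfr2 values are less certain. Egfr, Erbb2, Pdgfra, Fgfr1 and Fgfr3 also overlap genes on the opposite strand, from which their reads can be told apart only if strand was used in counting, and the sources used here do not state it.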

How the data were processed

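RNA-seq of 15 samples was analysed from 2 tables. Per the labels, the authors aligned reads with STAR v2.4.2a to the GENCODE mouse genome and gathered quality metrics with Picard tools and RNA-SeQC. The submitters' processing notes also list Salmon, DESeq2 1.18.1 and the build mm10, without their roles, and strandedness is not given in the sources used here. The authors deposited expected counts per gene, which need not be whole and are not normalized, and a second table by the authors holds TPM, scaled to gene length and to a fixed total. No pooled columns were present.

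Samples were grouped by their labels. The expected counts were rounded, filtered with filterByExpr (17481 of 46679 genes kept), normalized by TMM and fitted with edgeR 4.0.16 under R 4.3.3 (glmQLFit and glmQLFTest) over all 15 samples, with a mean per group and no covariate, and with Benjamini-Hochberg adjustment within each comparison. The F test among the 5 groups used the same fit. DE required an adjusted p under 0.05 and a log2 fold change of at least 1 in size. All 10 receptors were tested, and the steps were first tested on simulated data. For simulated CT2A against naïve brain 0 of 50 changes of 2-fold were called. Of changes of 4-fold, 8-fold and 16-fold, 26.5%, 63.3% and 85.4% were called. The simulation had 87 called genes, against 6858 in the data, so these shares need not hold for the data. Symbols came from GENCODE M21, in which 46269 of the identifiers matched, and promoters from RefSeq. Likeness was the root mean square difference of log2 CPM (prior count 2) standardized over 15 samples. Pathway genes were named when DE in at least 1 comparison. Genes of cell types were given as summed CPM.

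The members and the lists were chosen with earlier results of these data known. Depth was 3105119 to 13130158 counts per sample, so the floor of 3 counts lay at 0.214 to 0.811 CPM, and intervals and floors cover counting error only where no model is named. No samples were duplicates. Alternatives were library size scaling, no filter or at least 10 counts in every sample, no fold threshold, a replicate block, only the samples compared, DESeq2 1.42.0, limma 3.58.1 on log2(TPM + 1) and each replicate left out. The library scale of the TPM table was added after the data were seen. The 2 genes nearest to each receptor in pattern were named, except 1 gene which, like part of the genotype of 2 lines, is not reported here.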

Additional observations from a re-analysis of the deposited data

Results flagged for a closer look

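Naïve brain cancels when changes over it are compared between lines, so the 15 receptor values here are the calls between lines given above. They are not a further test (edgeR, adjusted p under 0.05 and a log2 difference of at least 1 in size). In these pairs of lines 2.62% to 19.8% of all tested genes were DE. Calls that were lost when a library was left out are named above. With 3 mice per group, single samples were not tested as outliers. Values are the log2 fold change over naïve brain in the line named before the other minus that in the other. The Erbb3 change differed by -5.95 in CT2A against GL261, -2.53 in CT2A against 005, -4.11 in CT2A against Mut3, 3.42 in GL261 against 005 and 1.84 in GL261 against Mut3. The Met change differed by 5.11 in CT2A, 5.49 in GL261 and 5.22 in 005, each against Mut3. The Fgfr1 change in CT2A differed by 2.77 from GL261, 1.74 from 005 and 2.32 from Mut3. The Pdgfra change differed by 2.28 in CT2A against 005 and -1.65 in 005 against Mut3, and the Igf1r change by 1.37 in CT2A and 1.14 in 005, each against Mut3.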

How the results depend on the processing

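Requiring at least 10 counts in every sample left 4 receptors to test, of which 3 differed among the 5 groups (7 in the fit as reported). DE receptors against naïve brain were then 3 in CT2A (7 as reported), 0 in GL261 (3) and 1 in Mut3 (4), and between tumors 2 in CT2A against Mut3 (4), 0 in GL261 against 005 (1) and 0 in GL261 against Mut3 (2). Over all genes 3956, 2517 and 3628 of 9435 were DE in CT2A, GL261 and Mut3 against naïve brain. As reported, 6858, 3913 and 6601 of 17481 were. In the pairs of tumors 1294, 194 and 1531 of 9435 were DE (2231, 458 and 3015 of 17481 as reported). With no filter 005 against naïve brain gave 2 (0 as reported) and with DESeq2 1. All genes called there were 2276 of 32244 and 3341 of 17481, against 2217 of 17481 as reported. DESeq2 gave 4 in CT2A against GL261 (2), 2 in GL261 against 005 and 5 in 005 against Mut3 (3). It called 2163, 952 and 4319 of 17481 genes in these pairs, where 1358, 458 and 3463 were DE as reported. Fitting only the samples compared gave 2 in Mut3 against naïve brain, 4 in CT2A against GL261, 1 in CT2A against 005 (3), 0 in GL261 against 005 and 1 in 005 against Mut3. In the same order, 6261 of 14939, 2353 of 14924, 108 of 15214, 148 of 15501 and 925 of 15736 genes were DE. With limma on log2(TPM + 1), which understates changes of low genes, 4 differed among the groups, and 4 were DE in CT2A against naïve brain, 0 in CT2A against 005, 1 in CT2A against Mut3, 1 in GL261 against Mut3 and 0 in 005 against Mut3. Limma called 5531, 477, 1132, 1163 and 1088 of 17481 genes in these comparisons. The TPM library scale gave 1 in CT2A against 005 and 1 in GL261 against Mut3, and library size gave 1 in the latter. Beside these stood 641, 1950 and 2618 of 17481 genes. The causes were not tested.

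Leaving out each replicate in turn gave 5 to 9 receptors among the 5 groups. Against naïve brain it gave 3 to 7 in CT2A (3 without CT2A replicate 2, 4 without naïve replicate 2), 1 to 3 in GL261 (1 without naïve replicate 1 or GL261 replicate 1 or 3), 0 to 4 in 005 (4 without 005 replicate 3) and 2 to 6 in Mut3 (2 without Mut3 replicate 1, 6 without Mut3 replicate 2). All DE genes for the libraries named were 4683 of 18588 and 5569 of 18385 in CT2A. They were 2246 of 18501, 1988 of 18524 and 2397 of 18508 in GL261, and 6535 of 18300 in 005. In Mut3 they were 5496 of 18313 and 5693 of 18287. Between tumors leaving out each replicate gave 2 to 3 in CT2A against GL261, 1 to 4 in CT2A against 005 (1 without CT2A replicate 2 or 3), 4 to 4 in CT2A against Mut3, 1 to 1 in GL261 against 005, 1 to 3 in GL261 against Mut3 (1 without GL261 replicate 3 or Mut3 replicate 3) and 2 to 4 in 005 against Mut3 (2 without Mut3 replicate 1 or 3). For the libraries named, 189 of 18588 and 183 of 18377 genes were DE in CT2A against 005. The counts were 1877 of 18508 and 1968 of 18320 in GL261 against Mut3, and 1762 of 18313 and 2132 of 18320 in 005 against Mut3.

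Samples that share a replicate number are different mice, and their deviations correlated from -0.33 to 0.26 with 1 of 30 pairs over 0.1, so the numbers did not pair them. The replicate block ended the calls of Erbb3 in GL261 against Mut3 (2 receptors to 1) and in CT2A against 005 (3 to 2) and of Fgfr2 among the 5 groups, and 3 of 15 samples correlated best with their own number. Of 71 receptor values that were not DE, 19 became DE under at least 1 alternative.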
